A study of Mus musculus with 12 samples.

Results

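The 6 core genes of the spindle assembly checkpoint, *Ttk*, *Bub1*, *Mad1l1*, *Mad2l1*, *Bub1b* and *Bub3*, were followed in mouse oocytes with and without the RNA-binding protein LSM14B. They were taken by gene symbol from a table of 24259 genes, and all 6 were found and passed the filter on low values in each of the 5 comparisons. The oocytes were fully grown germinal vesicle (GV) oocytes, still in prophase arrest, from 3-week-old wild-type (WT) and *Lsm14b* KO mice that had received 5 IU of PMSG, a gonadotropin that stimulates follicle growth, 46 h earlier. KO mice were homozygous for Lsm14b tm1a(KOMP)Mbp, a germline knockout-first insertion with a reporter, on a C57BL/6J background, so that every tissue and not the oocyte alone carried it. In both genotypes the oocytes were held in cycloheximide, which stops ribosomes on the mRNA, and about 1500 were lysed for a sucrose gradient of 28 fractions. Fractions 1 to 10 formed the RNP pool, with mRNA in light particles, and fractions 11 to 28 formed the polysome pool, with mRNA on ribosomes. Each pool of each genotype gave 3 libraries, 12 in all. Nothing in the descriptions says that the libraries of a group came from separate mice or gradients, so the p-values measure the spread between these libraries.

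The spindle assembly checkpoint delays anaphase until all chromosomes are attached to the spindle. At an unattached kinetochore the kinase TTK (MPS1) starts the signal, BUB1 and the MAD1L1 scaffold are recruited, MAD2L1 is converted to its closed form, and MAD2L1 binds CDC20 together with BUB1B (BUBR1) and BUB3 to form the mitotic checkpoint complex, which inhibits the anaphase-promoting complex. A GV oocyte makes little new RNA, so the proteins of meiosis I are translated from mRNA stored during growth. Much of that mRNA is kept in RNP particles with short poly(A) tails until it is adenylated and loaded on ribosomes, in part through cytoplasmic polyadenylation elements (CPEs) near the 3′ end.

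In the mm10 coordinates of the authors' table, *Ttk* spans chr9:83834687-83872390, *Bub1* chr2:127800198-127831859, *Mad1l1* chr5:140008687-140321552, *Mad2l1* chr6:66535466-66540991, *Bub1b* chr2:118598209-118641592 and *Bub3* chr7:131560389-131571898. *Bub1b* and *Bub3*, whose proteins bind each other, moved in opposite directions. *Bub1b* was lower in KO than in WT in the RNP pool, and *Bub3* was higher in KO in both pools. The 3′ ends of these mRNAs and of *Mad2l1* are shown because CPEs were found in the last 100 nt of *Bub1b* and *Mad2l1* and not of the other 4 members. Capitals mark the CPE letters TTTTAT or TTTTAAT and the polyadenylation signal AATAAA or ATTAAA, searched on the transcript strand only. The sequences are from the GENCODE M21 model (GRCm38, the same assembly as mm10) that ends nearest to the end of the authors' gene.

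*Bub1b*, upstream CPE, chr2:118641521-118641550, plus strand, exon 23: tctcttttgtaaTTTTATaacatgtactct
*Bub1b*, CPE directly followed by the polyadenylation signal, chr2:118641553-118641582, plus strand, exon 23: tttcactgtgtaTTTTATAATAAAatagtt
*Mad2l1*, CPE after the polyadenylation signal, chr6:66540962-66540991, plus strand, exon 5: tgtAATAAAgaactcttaTTTTAATgtttt
*Bub3*, polyadenylation signal without a CPE in the window, chr7:131571859-131571888, plus strand, exon 8: atttgcctgtttATTAAAgttacctttgct

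All of these stretches lie in the 3′ UTR of the last exon. Of 17019 genes whose 3′ UTR spans at least 100 nt, 18.0% held one of the CPE forms in this window and 81.1% held one of the signals. Each of the 6 members held a signal. *Ttk* had 2 CPEs farther upstream in its 3′ UTR of 321 nt, and *Bub1*, *Bub3* and *Mad1l1* had none in theirs. The *Bub1* model ended 923 nt away from the authors' gene end, so its true window may differ. These letters are a description and not evidence of a bound site.

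The deposited values are FPKM, fragments divided by the length of the transcript and by the mapped fragments of the library, so that levels can be compared between genes. Because of that scaling, every difference given here is one of relative level. In pooled oocytes, fewer cells and less RNA per cell cannot be told apart. The spacing of the low values put the depth at about 4.82 to 7.84 M mapped fragments per library. At that depth *Bub1* rested on about 66 to 182 fragments in a library, *Ttk* on 180 to 601, *Mad1l1* on 392 to 709, *Bub3* on 825 to 1730, *Mad2l1* on 1086 to 2112 and *Bub1b* on 1177 to 4099. Counting error alone, with each fragment taken as independent, was therefore 12.3% of the value for *Bub1* in its thinnest library and 2.91% for *Bub1b*. Copies made by amplification were not accounted for. The length used for *Bub1* came from the model that ended 923 nt away from the authors' gene end.

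*Lsm14b* itself was at 34.6, 29.3 and 27.4 FPKM in the WT RNP libraries and at 0.893, 0.0627 and 0 in the KO ones. In polysomes it was at 11.3, 15.3 and 13.2 in WT and at 0.260, 0 and 0.0876 in KO. The genotypes did not overlap in either pool (p = 0.1 in a two-sided exact permutation test, below which 3 against 3 libraries cannot go). All 10 oocyte markers were above 0 in every group. Their summed FPKM was higher in every KO library than in every WT library of the same pool. In RNP it was 5732 to 5943 for WT and 8522 to 8984 for KO. In polysomes it was 21698 to 23550 for WT and 26873 to 29293 for KO. One library, replicate 2 of the KO polysome pool, stood apart, with 24.5% of its summed FPKM in *Mir300* alone. That is a share of FPKM and not of fragments, because FPKM is divided by transcript length. The summed level of 13 granulosa and cumulus cell markers was, like that of the oocyte markers, higher in every KO library than in every WT library of the same pool. In RNP the sum of their FPKM was 31.3 to 37.0 for WT and 43.2 to 66.0 for KO. In polysomes the sum was 27.2 to 75.5 for WT and 81.4 to 103 for KO. In each pool 3 of the 13 were higher in every KO library than in every WT library, *Fshr* and *Inha* in both. The third was *Amh* in RNP, at 0.0900, 0.405 and 0.315 FPKM in KO and 0 in WT, and *Inhba* in polysomes. Of all genes that passed the filter on low values, 20.7% in the RNP pool and 18.2% in polysomes were higher in this way. The 13 markers were counted without that filter. *Inha*, the highest of them in KO polysomes, was at 51.4, 39.4 and 39.5 FPKM there and at 9.58, 0 and 8.11 in WT. *Cyp19a1* was the highest of them in both RNP groups and in WT polysomes. Its polysome libraries overlapped, at 62.0, 19.0 and 32.0 FPKM in WT and 14.6, 23.5 and 34.5 in KO. The KO mean was above the WT mean for 10 markers and below it for 1 in RNP, and for 7 and 2 in polysomes. *Foxl2*, *Amhr2*, *Has2* and *Ptx3* were at 0 in all or nearly all libraries, with a highest value of 1.73 FPKM. The part of these transcripts in the differences by genotype was not tested. Markers of leukocytes and theca or stroma summed to at most 8.71 and 2.58 FPKM, and the 4 globin genes were at 0 throughout. *Pecam1*, an endothelial marker, was above 0 in all groups while *Cdh5* was at or near 0, with a joint level of 13.2 to 41.0 FPKM.

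The 6 mRNAs spanned a wide range of levels. *Mad2l1* had the highest mean FPKM of the members in 3 of the 4 groups, at 152 ± 40.6 in WT polysomes, 192 ± 13.6 in KO RNP and 155 ± 24.3 in KO polysomes (SD, n = 3 each). In WT RNP *Bub1b* and *Mad2l1* were at 150.1 ± 12.3 and 143 ± 17.3 FPKM and their libraries overlapped. *Bub1* was the lowest member in every group, at 3.55 ± 0.45 FPKM in WT RNP and 8.22 ± 1.37 in KO polysomes. Among 10949 genes ranked by mean FPKM, *Mad2l1* was at place 543 in WT RNP and *Bub1* at place 7358. *Mad1l1* and *Ttk* lay between these extremes, and they overlapped in WT RNP but not in the other groups. The order of the *Bub1b* and *Bub3* mRNAs, whose proteins are both in the mitotic checkpoint complex, differed between the groups. In WT RNP *Bub1b* was above *Bub3* in every library, in WT polysomes and in KO RNP the libraries of *Bub1b* and *Bub3* overlapped, and in KO polysomes *Bub3* was above *Bub1b*.

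**Figure D1:**
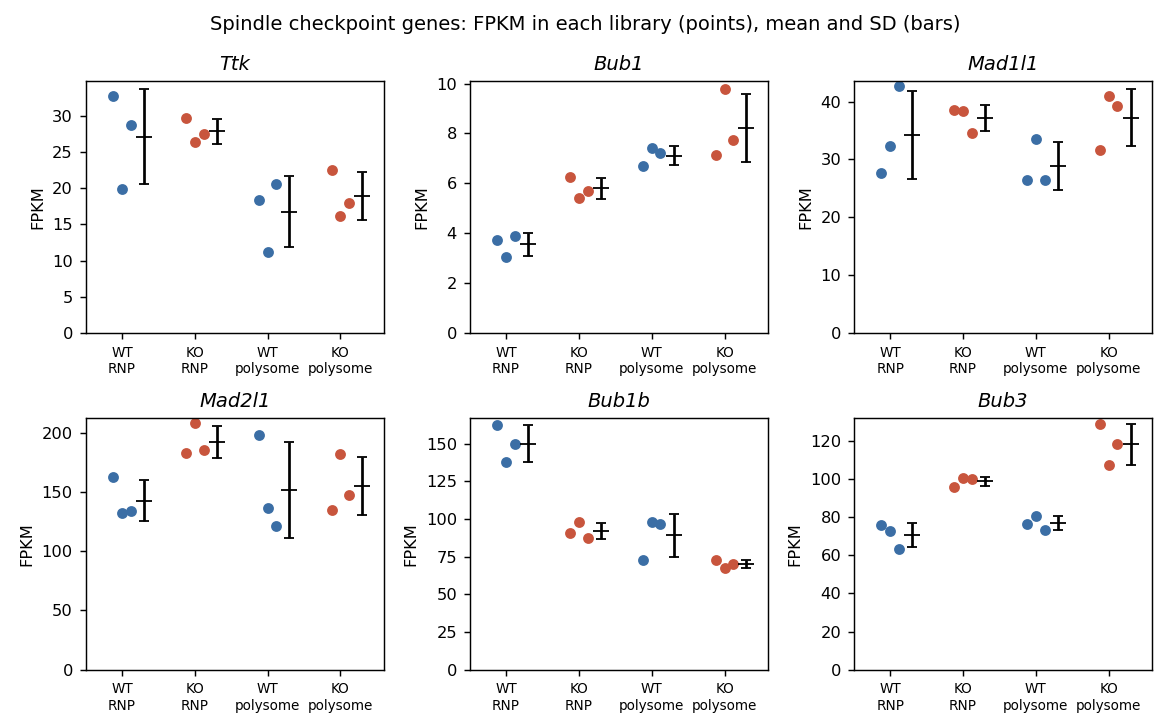
FPKM of the 6 checkpoint genes (y axis, linear from 0, own scale per gene) in the 4 groups of 3 libraries (x axis); points are libraries, and the bars beside them give mean and SD. *Bub1b* in WT RNP, at 138 to 163 FPKM, lies above the other 3 groups, and *Bub3* is higher in KO than in WT within each pool.

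The first question was how these mRNAs differed between KO and WT libraries within a pool. Changes are given as differences of log2(FPKM + 1), KO minus WT, with the standard error and the adjusted p of limma over all genes tested. Adding 1 understates the change of a low gene such as *Bub1*. In the RNP pool 3 of the 6 members passed an adjusted p of 0.05, 2 higher and 1 lower, against 20.7% of all 9931 genes (10.5% higher, 10.2% lower). In polysomes 1 of 6 passed, against 10.4% of 9536 genes (5.64% higher, 4.73% lower). The median change of the members was 0.28 in the RNP pool, where that of all genes was 0.05, and 0.19 in polysomes, where that of all genes was 0.10. Scaling every library to the same median moved the median of all genes to 0.18 and 0.21, and made 63.2% and 67.6% of the called genes higher in KO in the RNP and polysome pools, against 50.8% and 54.4% without it. The members called in either pool kept their call and their direction under that scaling.

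*Bub1b* encodes BUBR1, a pseudokinase that binds CDC20 and the anaphase-promoting complex. In the RNP pool it was at 163, 138 and 149.8 FPKM in WT and at 90.8, 97.9 and 87.8 in KO. Every KO library was below every WT library. The change was -0.70 (SE 0.11, adjusted p = 0.00295), 0.617 times the WT level on this scale and at the 15.8 percentile of the changes of all genes. The call held in each of the 15 alternatives, with adjusted p from 0.00201 to 0.0382. In polysomes *Bub1b* was at 72.7, 98.3 and 96.8 FPKM in WT and at 72.9, 67.2 and 70.4 in KO. WT replicate 1 lay among the KO libraries, and the change of -0.33 (SE 0.17, 95% interval -0.73 to 0.07) did not pass (adjusted p = 0.271).

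*Bub3* encodes the WD-repeat adaptor that brings BUB1 and BUB1B to the kinetochore. Its RNP level was 75.6, 72.4 and 63.4 FPKM in WT and at 96.0, 100.3 and 99.9 in KO. Its polysome level was 76.5, 80.6 and 73.2 in WT and at 129, 107 and 118 in KO. The KO libraries were above all WT libraries in both pools. The change was 0.48 (SE 0.12, adjusted p = 0.0205) in the RNP pool and 0.61 (SE 0.15, adjusted p = 0.0352) in polysomes, or 1.40 and 1.53 times the WT level. The RNP call was lost without KO RNP replicate 1, 2 or 3 (adjusted p = 0.0668, 0.0802 and 0.0772), and the polysome call without any 1 of its 6 libraries (adjusted p = 0.0548 to 0.123), while the change stayed between 0.41 and 0.68. Both calls were also lost with no intensity trend in the fit (adjusted p = 0.0962 and 0.147). Without the KO polysome library that stood apart it was 0.68 (adjusted p = 0.0874).

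*Mad2l1* encodes the protein that binds CDC20 in its closed form. RNP libraries held it at 163, 132 and 134 FPKM in WT and at 183, 208 and 186 in KO. No KO library fell within the WT range, and the change was 0.43 (SE 0.12, adjusted p = 0.0284), 1.35 times the WT level. This call was lost without WT RNP replicate 2 or 3 (adjusted p = 0.0680 and 0.0637) or KO RNP replicate 1, 2 or 3 (adjusted p = 0.0660, 0.115 and 0.0688), and it also missed the threshold with no filter, with quantile normalization, with no intensity trend and with all 12 libraries in 1 fit (adjusted p = 0.0581, 0.0569, 0.148 and 0.123). In polysomes it was at 198, 137 and 121 FPKM in WT and at 135, 182 and 148 in KO. The genotypes overlapped fully there, with a change of 0.05 (SE 0.21, 95% interval -0.42 to 0.52, adjusted p = 0.901).

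*Bub1* encodes the kinase that marks the inner centromere and is a platform for the other checkpoint proteins. Its RNP libraries were at 3.75, 3.04 and 3.88 FPKM in WT and at 6.26, 5.43 and 5.71 in KO. All KO libraries were above the WT ones, yet the change of 0.58 (SE 0.30, 95% interval -0.09 to 1.25) did not pass (adjusted p = 0.201) at this low level. It was thus 1 of 4 members whose genotypes did not overlap in the RNP pool, where 39.2% of all genes did not. In polysomes *Bub1* was at 6.69, 7.43 and 7.20 in WT and at 7.15, 9.76 and 7.75 in KO, and the ranges overlapped (change 0.18, SE 0.35, adjusted p = 0.795). *Bub3* was the only member without overlap in polysomes, where 31.7% of all genes had none.

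*Ttk* encodes the kinase at the head of the signal and *Mad1l1* the coiled-coil partner that holds MAD2L1 at the kinetochore. *Ttk* was at 32.7, 19.9 and 28.7 FPKM in WT RNP and at 29.6, 26.3 and 27.5 in KO RNP. *Mad1l1* was at 27.7, 32.3 and 42.7 in WT RNP and at 38.5, 38.4 and 34.6 in KO RNP. The KO libraries of both genes lay inside the wider WT range. Changes in the RNP pool were 0.06 for *Ttk* (95% interval -0.42 to 0.54) and 0.13 for *Mad1l1* (95% interval -0.29 to 0.56). In polysomes *Ttk* was at 18.3, 11.2 and 20.6 in WT and 22.5, 16.1 and 17.9 in KO. *Mad1l1* was at 26.5, 33.6 and 26.4 in WT polysomes and at 31.6, 40.9 and 39.2 in KO polysomes. The ranges overlapped again, and neither the change of 0.19 for *Ttk* (95% interval -0.53 to 0.91) nor that of 0.36 for *Mad1l1* (95% interval -0.15 to 0.86) passed (adjusted p = 0.746 and 0.346). The intervals leave room for changes of the size seen for *Bub3*. *Mad1l1* shares 37 exonic bases with the antisense gene *Gm16121*, whose reads cannot be told apart where strand was not used, and no other member shares exonic bases with an annotated gene.

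**Figure D2:**
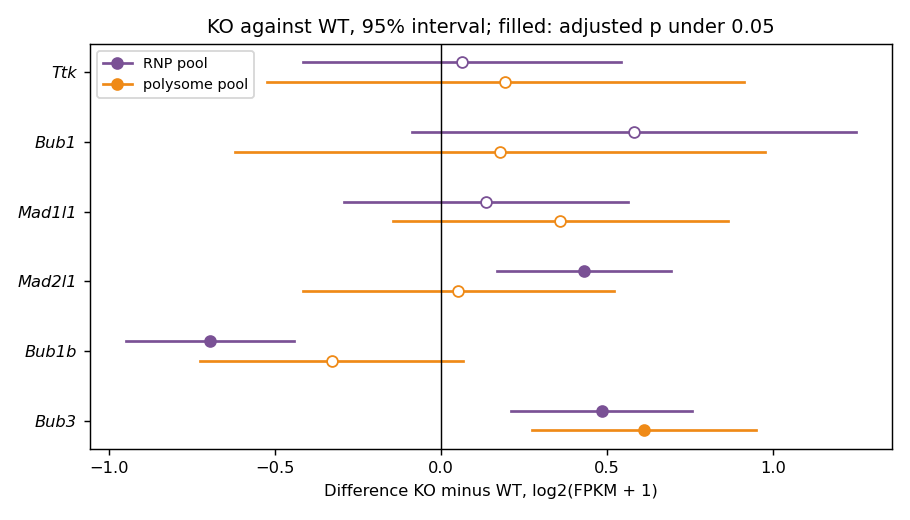
Difference KO minus WT in log2(FPKM + 1) (x axis) for the 6 checkpoint genes (y axis) in the RNP pool and the polysome pool; lines are 95% intervals of limma and filled points have an adjusted p under 0.05. *Bub1b* in the RNP pool is the filled point below 0, at -0.70, and *Bub3* is filled above 0 in both pools.

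A ratio of 2 genes within a library does not depend on how that library was scaled. The ratios of *Bub1b* to the other members were set side by side after their values had been seen. In the RNP pool *Bub1b* was at 2.15, 1.90 and 2.36 times the level of *Bub3* in WT and at 0.946, 0.976 and 0.878 times in KO. In polysomes the ratio was 0.949, 1.22 and 1.32 in WT and 0.567, 0.627 and 0.596 in KO. The genotypes were thus separate in both pools, with *Bub1b* at or above *Bub3* in most WT libraries and below it in every KO library. Against *Mad2l1* the RNP ratio was 1.00, 1.05 and 1.12 in WT and 0.496, 0.471 and 0.473 in KO, whereas the polysome ratios overlapped. An exact permutation test of 3 against 3 cannot go below p = 0.1, which each separate ratio had. The RNP ratio of *Bub1b* to all 5 other members did not overlap between genotypes, where its ratio to 56.6% of 8811 genes did not. In polysomes this held for 3 of 5, *Bub1*, *Bub3* and *Mad1l1*, against 35.7% of 8046 genes. The ratio of *Bub3* to *Mad2l1*, both higher in KO RNP, was 0.465, 0.549 and 0.475 in WT RNP and 0.525, 0.483 and 0.538 in KO RNP, with overlap.

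**Figure D3:**
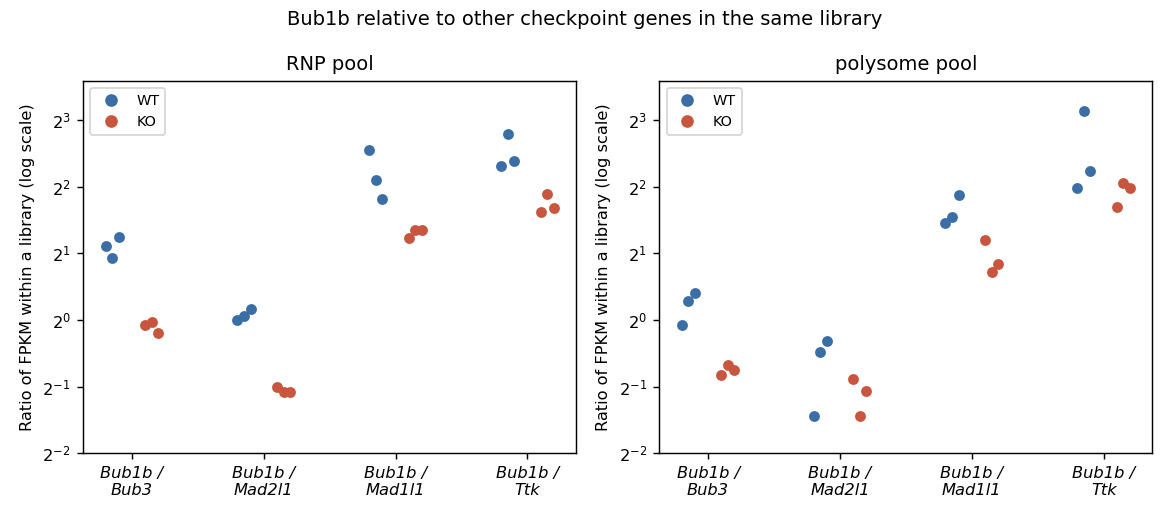
FPKM of *Bub1b* divided by that of *Bub3*, *Mad2l1*, *Mad1l1* or *Ttk* in the same library (y axis, log scale) in the RNP pool (left) and the polysome pool (right); each point is a library, 3 per genotype. In the RNP pool the WT and KO points are separate for all of these pairs, and the ratio to *Bub3* is 1.90 to 2.36 in WT and 0.878 to 0.976 in KO.

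The second question was how the relative levels of the 6 mRNAs differed between the pools. FPKM is scaled within each library, so these differences do not give the share of an mRNA in each pool. Poly(A) tail length was not measured, and its part in the values was not tested. In WT 1 of 6 members passed, lower in polysomes, against 14.7% of 9574 genes (7.97% higher, 6.72% lower). In KO 1 of 6 passed, also lower, against 29.2% of 9851 genes (15.5% higher, 13.8% lower). It was *Bub1b* in both genotypes. In WT its 3 polysome libraries, at 72.7 to 98.3 FPKM, were all below its RNP libraries at 138 to 163, with a polysome minus RNP difference of -0.75 (SE 0.17, adjusted p = 0.0195). In KO the polysome libraries at 67.2 to 72.9 were below the RNP libraries at 87.8 to 97.9, with a difference of -0.39 (SE 0.12, adjusted p = 0.0343). The WT call was lost without WT RNP replicate 1 or 3 (adjusted p = 0.0768 and 0.0635). The KO call was lost without KO RNP replicate 1, 2 or 3 (adjusted p = 0.0979, 0.132 and 0.0747) or KO polysome replicate 2 or 3 (adjusted p = 0.0794 and 0.0599). The WT comparison and the KO comparison use separate libraries, but each shares its libraries with the comparisons between genotypes.

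*Ttk* did not pass in either genotype. It was at 19.9 to 32.7 FPKM in WT RNP and 11.2 to 20.6 in WT polysomes, which overlapped, with a difference of -0.68 (SE 0.32, adjusted p = 0.207). In KO the RNP libraries at 26.3 to 29.6 and the polysome libraries at 16.1 to 22.5 did not overlap, and the difference of -0.55 (SE 0.19) had an adjusted p of 0.0571. That value went to 0.0254 without KO polysome replicate 1. *Mad2l1* in KO was at 183 to 208 FPKM in RNP and 135 to 182 in polysomes, with a difference of -0.32 (SE 0.13, adjusted p = 0.0983) that passed without KO polysome replicate 2 (-0.44, adjusted p = 0.0277). In WT the pools of *Mad2l1* overlapped, and the sign of its small difference, 0.06, turned without WT polysome replicate 1 (-0.14) and with the libraries scaled to the same median (-0.01) or quantile normalized (-0.07).

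*Bub1* was the member whose level was higher in polysomes than in RNP by the most in both genotypes. In WT every polysome library, at 6.69 to 7.43 FPKM, was above every RNP library, at 3.04 to 3.88, with a difference of 0.84 (SE 0.39, adjusted p = 0.195). With all 12 libraries in 1 fit its adjusted p was 0.0487. In KO the pools did not overlap either, with a difference of 0.43 (SE 0.26, adjusted p = 0.258). *Bub3* differed by 0.12 (SE 0.16) in WT and 0.25 (SE 0.11, adjusted p = 0.132) in KO, without overlap in KO. *Mad1l1* differed by -0.23 (SE 0.25) in WT and by 0.00 (SE 0.16, 95% interval -0.37 to 0.36) in KO. In all, the pools of 2 of 6 members did not overlap in WT, where 34.6% of all genes did not, and 5 of 6 did not in KO, where 44.2% did not.

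**Figure D4:**
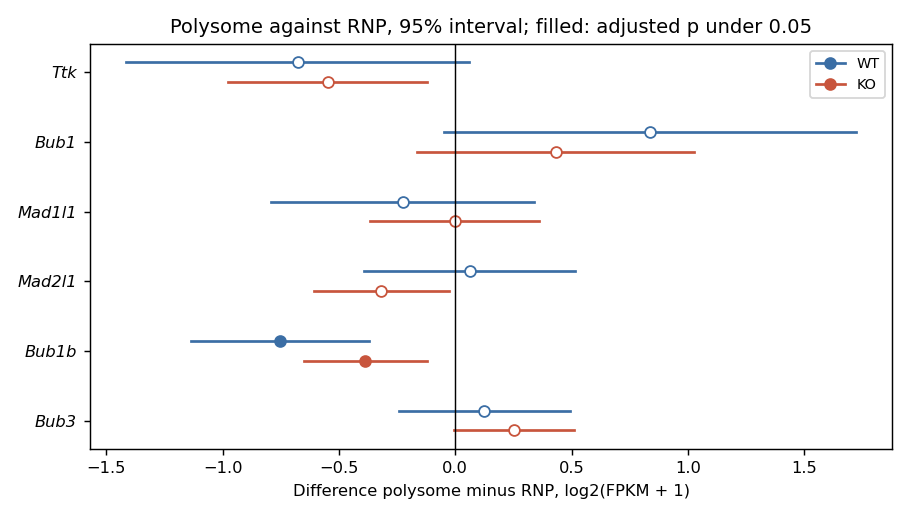
Difference polysome minus RNP in log2(FPKM + 1) (x axis) for the 6 checkpoint genes (y axis) in WT and KO oocytes; lines are 95% intervals of limma and filled points have an adjusted p under 0.05. *Bub1b* alone is filled, at -0.75 in WT and -0.39 in KO, while *Bub1* lies to the right of 0 with intervals that cross it.

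Whether the polysome minus RNP difference was unlike in KO and WT was tested as an interaction over all 12 libraries. None of the 6 members passed in limma, where 0.237% of 10949 genes passed. None had an unadjusted p under 0.05, where 11.1% of all genes had such a p. The difference of differences was 0.37 for *Bub1b* (SE 0.20, 95% interval -0.06 to 0.79, adjusted p = 0.527), with the KO minus WT difference lower in the RNP pool than in polysomes. It was -0.38 for *Mad2l1* (SE 0.25, adjusted p = 0.617) and -0.40 for *Bub1* (SE 0.41, adjusted p = 0.771). For *Bub3*, which was higher in KO in both pools, it was 0.13 (SE 0.18, 95% interval -0.26 to 0.51). *Mad1l1* and *Ttk* gave 0.22 (SE 0.28) and 0.13 (SE 0.37). The intervals of all 6 genes include 0, and they are wide, from -1.28 to 0.47 for *Bub1* and from -0.67 to 0.93 for *Ttk*, so that shifts of that size between pools were not detectable here.

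The wider checkpoint pathway was taken from a list of 28 genes that act on, anchor or silence the checkpoint, of which 26 passed the filter. *Kntc1* was at 0 to 1.06 FPKM and *Usp44* at 0 to 2.07, and both were left out by it. In the RNP pool 4 of the 26 were higher and 2 lower in KO, where 10.5% of all genes were higher and 10.2% lower, so that the share called was near the background of 20.7%. In polysomes 5 were higher and none lower, where 5.64% of all genes were higher and 4.73% lower. The median change of the list was 0.15 in RNP and 0.21 in polysomes, beside 0.05 and 0.10 for all genes. Leaving out KO polysome replicate 1, 2 or 3, none of the 26 passed in polysomes, and the RNP counts went down to 1 higher and 1 lower without KO RNP replicate 2. Between pools in WT 5 were higher and 1 lower in polysomes, beside 7.97% and 6.72% of all genes. In KO 9 were higher and 2 lower, beside 15.5% and 13.8%. In the interaction none passed in limma, with 3 at an unadjusted p under 0.05, where 11.1% of all genes had such a p.

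Among the proteins that recruit the checkpoint to the kinetochore, *Zw10*, of the RZZ complex that brings in MAD1L1 and dynein, and *Zwint*, which links KNL1 to that complex, were higher in KO in both pools. *Zw10* was at 7.82, 6.49 and 11.2 FPKM in WT RNP and at 16.1, 18.1 and 17.0 in KO RNP, and at 22.3, 17.3 and 19.5 in WT polysomes and 41.5, 38.6 and 48.9 in KO polysomes. No KO library reached down to the WT range in either pool. The changes were 0.96 (SE 0.26, adjusted p = 0.0281) and 1.09 (SE 0.22, adjusted p = 0.0198). *Zwint* changed by 0.85 (SE 0.19, adjusted p = 0.0138) in RNP and 0.87 (SE 0.22, adjusted p = 0.0388) in polysomes. *Spc25*, a subunit of the NDC80 complex, was not called by genotype (0.61 in polysomes, adjusted p = 0.0897) and was higher in polysomes than in RNP in KO (0.65, adjusted p = 0.00568). *Cenpe*, the kinetochore motor, was at 6.69, 8.96 and 10.4 FPKM in WT RNP and 4.29, 4.79 and 4.15 in KO RNP without passing, and was higher in polysomes in KO (0.83, adjusted p = 0.0411). That call was lost without any 1 of its 6 libraries (adjusted p = 0.0509 to 0.117).

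In the chromosomal passenger complex, which corrects faulty attachments, *Birc5* (survivin) was higher in KO in RNP (0.61, SE 0.06, adjusted p = 0.000267) and in polysomes (0.39, SE 0.09, adjusted p = 0.0354). Its level was 685 ± 22.8 FPKM in WT RNP and 1424 ± 120 in WT polysomes (SD, n = 3). *Incenp*, the scaffold of the complex, was higher in KO polysomes (0.81, SE 0.22, adjusted p = 0.0477), with 38.4, 40.8 and 40.5 FPKM in WT and 92.1, 69.5 and 55.7 in KO. The borealin gene *Cdca8* was lower in KO RNP. *Gsg2*, now named *Haspin*, whose kinase marks histone H3 to recruit this complex, was at 181, 196 and 239.5 FPKM in WT RNP and at 129, 103 and 124 in KO RNP. Its KO libraries were all below the WT ones, with a change of -0.78 (SE 0.14, adjusted p = 0.00434). Like *Bub1b* it was lower in polysomes than in RNP in WT (-1.51, adjusted p = 0.00265) and in KO (-1.57, adjusted p = 0.00205). *Gsg2* lies within *Itgae* on the opposite strand and shares no exonic base with it.

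Of the kinases that promote checkpoint signalling, *Plk1* was higher in KO polysomes, at 144, 149.9 and 160.3 FPKM in WT and 255, 230.0 and 226 in KO (0.64, SE 0.12, adjusted p = 0.0145). *Nek2* was higher in KO RNP (0.66, SE 0.17, adjusted p = 0.0225). *Nek2* shares 298 exonic bases and *Plk1* 156 with a gene annotated on the other strand. *Cdk1* was not called by genotype and was higher in polysomes than in RNP in KO, at 35.4, 30.9 and 27.6 FPKM against 8.65, 7.47 and 9.25 (1.77, SE 0.20, adjusted p = 0.000250). With 1 library left out, adjusted p values in the RNP pool ranged from 0.0131 to 0.103 for *Zw10*, from 0.00752 to 0.0538 for *Zwint*, from 0.0302 to 0.0927 for *Nek2* and from 0.0623 to 0.165 for *Cdca8*, and they stayed under the threshold for *Birc5* (0.00101 to 0.00202) and *Gsg2* (0.00730 to 0.0189). The remaining called genes, *Aurkb*, *Spdl1* and *Zfp207*, were called between pools and not between genotypes.

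**Figure D5:**
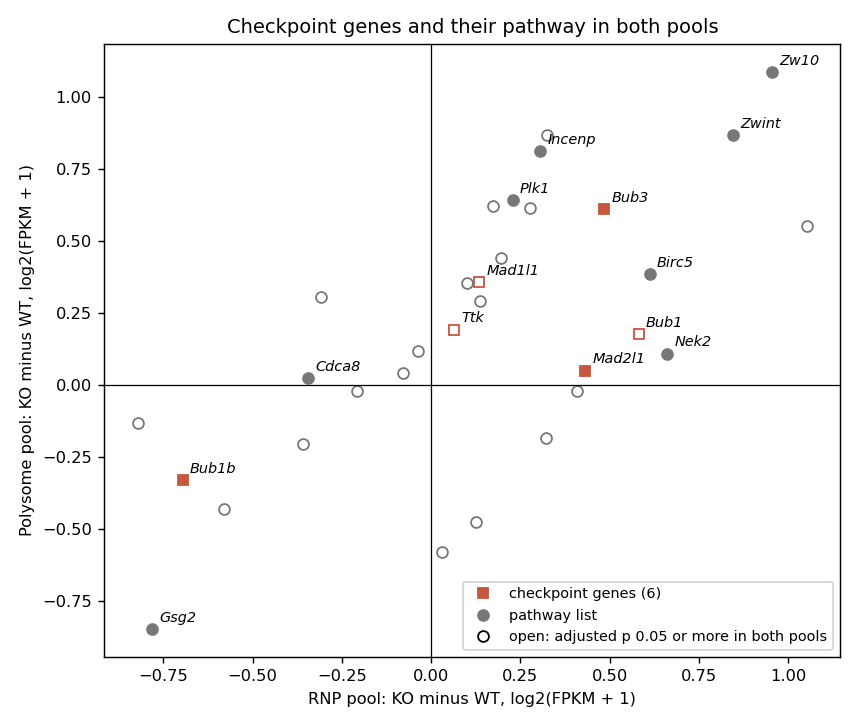
Difference KO minus WT in log2(FPKM + 1) in the RNP pool (x axis) and in the polysome pool (y axis); squares are the 6 checkpoint genes and circles the pathway list, open where the adjusted p was 0.05 or more in both pools. *Zw10* is at 0.96 and 1.09 in the upper right, and *Bub1b* (-0.70 and -0.33) and *Gsg2* (-0.78 and -0.85) are the named genes at the lower left.

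The genes whose log2(FPKM + 1) followed each member most closely over the 12 libraries were taken from 6600 genes with at least 5 FPKM in 6 or more libraries. The 12 points share their 4 groups and their libraries, and the likeness is given as a description. For *Bub1b* they were *Top1*, *Itga9* and *Gtf2f1* (Pearson r 0.970, 0.967 and 0.962). *Top1*, which encodes DNA topoisomerase I, had means of 68.1 FPKM in WT RNP, 29.8 in WT polysomes, 35.6 in KO RNP and 23.6 in KO polysomes, the same order of groups as *Bub1b*. For *Bub3* they were *Mvp*, *Cct3* and *Ran* (r 0.970, 0.954 and 0.953), which were highest in KO polysomes as *Bub3* was. For *Bub1* they were *Polr3k*, *Skap2* and *Dnajb6* (r 0.981, 0.976 and 0.968), lowest in WT RNP and highest in KO polysomes. *Ttk* was followed by *9130015A21Rik*, *Gas6* and *Hscb* (r 0.954, 0.914 and 0.908). The closest genes of *Mad2l1* (*Caml*, *Tgfb3* and *Zfp955a*, r 0.875, 0.846 and 0.838) and of *Mad1l1* (*9130023H24Rik*, *Tbc1d25* and *9930104L06Rik*, r 0.882, 0.877 and 0.876) were less alike. Among the members themselves, *Bub1b* ran against *Bub1* (r -0.888) and *Bub3* (r -0.739) over the same 12 libraries.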

How the data were processed

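RNA from pooled gradient fractions of GV oocytes was amplified by Smart-seq2 and sequenced as 150 bp pairs, with 3 libraries of each genotype and pool. The deposited table gives FPKM per gene and library. Per the labels, the authors trimmed the reads, aligned them to mm10 with TopHat2 2.0.13 and computed FPKM with Cufflinks 2.2.1, and Cuffnorm and Cuffdiff are also named. The gene annotation and the use of strand are not given in the sources used here. Sources differ on the library kit and on the densest sucrose. The table's 54 columns of the authors' own comparisons (log2 changes, p-values, q-values) were not used.

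Genotypes and pools were compared on log2(FPKM + 1) with limma 3.58.1 (R 4.3.3, intensity trend, two-sided), in genes with at least 1 FPKM in at least 3 libraries of the comparison, with only its own libraries in the fit, and Benjamini-Hochberg adjustment over all genes tested at 0.05. The interaction used all 12 libraries. The fit was tested on simulated data with 200 changed genes in each run. Between genotypes, a log2 change of 1 was found for 31.5% of them in RNP and 5.5% in polysomes. Between pools it was found for 12% in WT and 42% in KO, and in the interaction for 12%. A log2 change of 2 was found for 64.5% to 91%, so many changes of the smaller size were missed in these runs. Between genotypes the runs with a change of 1 called 69 genes in RNP and 11 in polysomes, where the data called 2057 and 989. With fewer genes called, the Benjamini-Hochberg cut was stricter in those runs. Their shares therefore do not give the sensitivity of the fit in the data. Depth was estimated from the spacing of low FPKM values in single-transcript genes, with 200 nt taken off the transcript length, and is approximate. Other pseudocounts, filters, scalings, fits and left-out libraries were tried. Named genes were *Lsm14b*, the 6 members, pathway genes called in any comparison (values for at most 10, by largest genotype change, and *Cdca8* by direction only), the 3 genes most correlated with each member, and markers as lists. Members and lists were chosen with earlier results of these data known. Figures were drawn with matplotlib 3.10.9, and *Kntc1* and *Usp44* were named after their values were seen.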

Additional observations from a re-analysis of the deposited data

How the results depend on the processing

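Over 15 alternatives per comparison (20 for the interaction), the members' changes kept direction and side of the threshold in 425 of the values, lost the call in 33 and gained it in 7. The sign turned in 15, none of them called, in *Mad2l1*, *Ttk* and *Mad1l1*, with values between -0.14 and 0.11 after the turn. The number of members called in KO against WT polysomes was 1 and fell to 0 with no intensity trend and with the replicate block, and was 0 to 0 when a library was left out. In KO against WT RNP it was 3, 1 with no trend and 1 to 3 with a library left out. There 1 member was higher and 1 lower with no filter, with quantile normalization, with the replicate block and with all 12 libraries in 1 fit. Between pools in WT the number called was 1, 0 with no trend, 2 with all 12 libraries in 1 fit and 0 to 1 with a library left out. Between pools in KO it was 1, 2 with the filter at 5 FPKM, 3 with libraries scaled to the same median, 2 with quantile normalization, and 0 with no trend, with the replicate block and with all 12 libraries in 1 fit, and it ranged from 0 to 2 with a library left out. In the interaction it was 0 throughout. Same-numbered libraries did not deviate together (r of -0.0207 to 0.0255 over 10949 genes). The descriptions do not say whether the numbers pair libraries, and these correlations cannot settle it. The block lost the calls of *Bub3* in polysomes (adjusted p = 0.0853), *Mad2l1* in RNP (adjusted p = 0.0538) and *Bub1b* between pools in KO (adjusted p = 0.0643). Over all genes, KO against WT polysomes called 989, but 545 with no filter, 508 with no trend, 1843 with all 12 libraries in 1 fit and 383 to 790 with a library left out, KO against WT RNP called 2057, and 1255 to 1911 with a library left out, WT pools called 1406, but 728 with no trend, 2302 with all 12 libraries and 780 to 1212 with a library left out, and the interaction called 26, but 6 with no trend, 0 with the block and 0 to 46 with a library left out. Leaving out a library also leaves fewer samples in the fit. The cause of the other changes was not tested. Of the members, *Bub1* rested on the fewest fragments, about 66 to 182 in a library.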
